A study of Mus musculus with 4 samples.

Results

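The group is 45 cell cycle genes out of the 27998 genes in the deposited count tables. It was put together from symbols that mark S phase, mitosis or dividing cells in general: 12 S-phase genes, 27 mitotic genes and 6 broadly expressed genes whose levels are high in dividing cells. The study treated mice bearing MC-38 colon tumors with antibodies to OX40 and PD-L1 and sequenced T cells enriched from blood, cell by cell. OX40 is a costimulatory receptor of activated T cells and PD-L1 is the ligand of the inhibitory receptor PD-1. All mice were female C57BL/6 animals, 6 to 8 weeks old at the start, with MC-38 cells placed under the skin, and blood was taken on day 18. The untreated library had no antibody. The anti-PD-L1 library followed 150 µg of antibody on days 10, 13 and 17. The library named anti-OX40/CpG here followed 150 µg of anti-OX40 with 25 µg of CpG, a TLR9 ligand, on day 7, and the PDOX library followed both treatments. Each treatment has 1 library and no replicate. The series' design text speaks of 4 blood samples from 4 mice, which is read here as 1 mouse per library, so mouse, library and treatment cannot be told apart, and no treatment was tested against another.

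Cells that divide first copy their DNA in S phase, when the replicative helicase, the sliding clamp and the enzymes that supply nucleotides are made. In G2 and mitosis they make cyclins, mitotic kinases, kinetochore proteins, spindle proteins and parts of the machinery that degrades cyclins at exit. Most T cells in blood rest outside the cycle, and antigen or costimulation brings some of them into it.

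The untreated library holds 2392650 UMIs (unique molecular identifiers, each 1 captured transcript) in 862 barcodes. The anti-PD-L1 library holds 4969885 UMIs in 1451 barcodes, the anti-OX40/CpG library 4931178 in 1583, and the PDOX library 4121932 in 1538. Barcodes with at least 200 genes were kept as cells, 784, 1446, 1559 and 1510 in that order, which is the order of the 4 libraries throughout. Hemoglobin genes took 7.99%, 0.344%, 1.51% and 1.70% of all UMIs, most in the untreated library. They were left out of all totals together with mitochondrial and ribosomal genes. Levels are UMIs of a gene, or of several genes summed, per 10000 UMIs of the remaining 27873 genes. The median cell held 1434.5, 1618, 1569 and 1494.5 such UMIs.

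Cells were placed in gates by their own UMIs. T cells carry a CD3 chain (Cd3d, Cd3e or Cd3g), and the CD8 T gate adds Cd8a or Cd8b1 without Cd4, the CD4 T gate Cd4 without Cd8a or Cd8b1. The CD8 T gate holds 319, 656, 672 and 451 cells and the CD4 T gate 102, 197, 265 and 301. The NK gate (NK receptor genes, no CD3) holds 14, 5, 32 and 15 cells, and the B gate (B cell genes such as Cd79a, Cd79b and Ms4a1, no CD3) 31, 58, 8 and 38. The B cell genes reached 92.5 per 10000 in the B gate, 0.371 in the CD8 T gate and 0.215 in the CD4 T gate, and the NK receptor genes 48.1 per 10000 in the NK gate. Another 26, 68, 65 and 77 T cells carried UMIs of both coreceptors, and 238, 390, 480 and 503 carried none.

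The first question is how much S-phase and mitotic transcript each treatment's CD8 T cells held. Mitotic transcript was high in the anti-PD-L1 and PDOX libraries and low in the untreated and anti-OX40/CpG libraries. S-phase transcript was highest in the same 2 libraries, with a smaller spread. The summed mitotic level was 2.97, 7.25, 2.78 and 6.43 per 10000, from 149, 956, 325 and 520 UMIs. The exact 95% Poisson intervals are 2.51 to 3.48, 6.80 to 7.73, 2.48 to 3.09 and 5.89 to 7.01. The intervals of the 2 high libraries do not overlap those of the 2 low ones. Intervals throughout cover counting error only, not the spread between mice. Those of levels and ratios also take UMIs as independent and leave out the spread between cells. The single richest cell held 81, 163, 132 and 178 of these UMIs, so they are too narrow. Against the untreated library the ratio was 2.45 (2.06 to 2.93) for anti-PD-L1, 0.936 (0.769 to 1.14) for anti-OX40/CpG and 2.17 (1.80 to 2.62) for PDOX. The ratios of the 3 treated libraries share 1 untreated library. They depend on which cells enter. For anti-PD-L1 the ratio was 1.38 without cells of over 2900 genes, 1.53 with every cell thinned to 750 UMIs and 1.04 without cells that carry at least 3 mitotic genes, a rule that removes cells by the same UMIs. It was 3.16 without the 3 cells richest in mitotic UMIs of each library and 3.31 with cells gated by a log1p value above 1 for Cd8a or Cd4 (the log1p gate), which sets no condition on CD3 or on the other coreceptor. For PDOX it was 1.23 without cells with 3 mitotic genes and 3.28 with the log1p gate, which gave 0.596 for anti-OX40/CpG.

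The summed S-phase level of the CD8 T gate was 2.81, 4.46, 3.21 and 3.93 per 10000 (141, 588, 376 and 318 UMIs). Its ratio to the untreated library was 1.59 (1.32 to 1.92), 1.14 (0.941 to 1.40) and 1.40 (1.15 to 1.72). The 6 broadly expressed genes reached 33.1, 43.0, 33.6 and 42.5 per 10000, with ratios of 1.30, 1.01 and 1.28. All 3 classes were highest in the anti-PD-L1 library, but without cells of over 2900 genes PDOX was ahead, at 6.43 against 4.08 for mitotic and 3.93 against 3.76 for S-phase genes.

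Gene by gene, a member counts here as higher or lower when its level differs at least 2-fold from the untreated library and both libraries together hold at least 20 of its UMIs. A gene can reach this depth through the treated library alone, as Ccna2 did for anti-PD-L1 with 24 UMIs against 1. Sparse genes thus enter more readily where they are high, so the counts are a description only. In the CD8 T gate 19 of 34 members with that depth were higher in the anti-PD-L1 library and 0 were lower, where 4.88% of all 7689 genes were higher and 2.73% lower. The 19 are 14 of 18 mitotic, 3 of 10 S-phase and 2 of 6 broad genes. In the PDOX library 11 of 24 members were higher and 0 lower, where 4.85% of 6700 genes were higher and 6.6% lower. Cdca3, with 22 UMIs against 3, reached the depth through PDOX alone. In the anti-OX40/CpG library 1 of 22 was higher (Mcm2) and 1 lower (Spc24, a kinetochore protein), a share near the 3.76% and 3.42% of all 7307 genes. The median log2 ratio of the members with that depth was 1.11, 0.00 and 0.94 in the 3 treated libraries in order, and that of all genes was -0.05, -0.08 and -0.09. These medians cover different sets of 34, 22 and 24 members, so they are not compared between libraries. At a depth of at least 50 UMIs the members higher were 4 of 17, 0 of 11 and 6 of 12, where 2.19%, 1.92% and 3.31% of all genes were. At 10 UMIs they were 18 of 38 for PDOX, where 6.64% of all genes were.

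Among the S-phase genes of the CD8 T gate, the replicative helicase subunits Mcm2 and Mcm6 (ENSMUSG00000002870 and ENSMUSG00000026355) stood above the untreated library in all 3 treated ones. Mcm2 stood at 0.0995, 0.311, 0.299 and 0.210 per 10000, from 5, 41, 35 and 17 UMIs. Mcm6 stood at 0.299, 0.546, 0.521 and 0.606, and its ratio for PDOX was 2.03 (1.12 to 3.90). The subunits Mcm4 and Mcm7 showed no such order, with Mcm4 at 0.318, 0.387, 0.171 and 0.247 and Mcm7 at 0.378, 0.402, 0.487 and 0.359. Pcna (ENSMUSG00000027342), the sliding clamp of DNA polymerase, stood at 0.916, 1.27, 0.888 and 1.13 per 10000, with no 2-fold difference in any library. Rrm2 (ENSMUSG00000020649), the small subunit of ribonucleotide reductase, stood at 0.0995, 0.228, 0.154 and 0.272. Its ratio was 2.73 (1.01 to 9.24) for PDOX and 2.29 (0.878 to 7.55) for anti-PD-L1. Tyms, which makes thymidylate, stood at 0.119, 0.197, 0.154 and 0.260.

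Among the mitotic cyclins and kinases of the CD8 T gate, Ccnb2 (ENSMUSG00000032218), a B-type cyclin, stood at 0.0995, 0.311, 0.0512 and 0.631 per 10000, from 5, 41, 6 and 51 UMIs. Its ratio was 3.12 (1.24 to 10.1) for anti-PD-L1 and 6.34 (2.55 to 20.3) for PDOX. Ccna2 (ENSMUSG00000027715), cyclin A2, had 1, 24, 6 and 13 UMIs, a ratio of 9.15 (1.49 to 376) for anti-PD-L1. Cdk1 (ENSMUSG00000019942), the kinase that both cyclins activate, stood at 0.119, 0.243, 0.0769 and 0.247, and its intervals reach below 1 in every library. The cyclins and their kinase were highest in the anti-PD-L1 and PDOX libraries, as was the summed mitotic level, of which they are part. The other mitotic kinases are too sparse for a ratio: Aurka had 4, 5, 2 and 7 UMIs, Aurkb 1, 15, 2 and 8, and Plk1 0, 13, 4 and 8.

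Birc5 (ENSMUSG00000017716), the survivin subunit of the chromosomal passenger complex, also differed between the libraries of the CD8 T gate. It stood at 0.159, 0.865, 0.214 and 0.754 per 10000, from 8, 114, 25 and 61 UMIs. Its ratio was 5.43 (2.66 to 12.9) for anti-PD-L1, 1.34 (0.586 to 3.44) for anti-OX40/CpG and 4.74 (2.26 to 11.5) for PDOX. Cdca8, borealin of the same complex, had 3, 38, 11 and 16 UMIs, a ratio of 4.83 (1.53 to 24.4) for anti-PD-L1. Ube2c (ENSMUSG00000001403), the ubiquitin-conjugating enzyme of the anaphase-promoting complex, stood at 0.219, 0.812, 0.188 and 0.569. Its ratio was 3.71 (1.99 to 7.65) for anti-PD-L1 and 2.60 (1.33 to 5.56) for PDOX. Cdc20, the activator of that complex, had 4, 26, 14 and 11 UMIs, so both exit genes were highest in the anti-PD-L1 library, where Ccnb2 was highest in PDOX. Among spindle genes, Nusap1 (ENSMUSG00000027306), a microtubule-binding protein, had 0, 28, 9 and 7 UMIs, at least 3.56-fold higher for anti-PD-L1. Tpx2, which activates Aurora A on spindle microtubules, had 4, 25, 6 and 6 UMIs.

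The centromeric histone Cenpa (ENSMUSG00000029177) differed less between the CD8 T libraries, at 0.677, 1.02, 0.683 and 1.27 per 10000. Its ratio was 1.51 (1.03 to 2.27) for anti-PD-L1 and 1.88 (1.27 to 2.86) for PDOX. Top2a (ENSMUSG00000020914), the topoisomerase that untangles sister chromatids, stood at 0.358, 0.539, 0.359 and 0.346, and Mki67 (ENSMUSG00000031004), which coats mitotic chromosomes, at 0.139, 0.235, 0.120 and 0.185. None of the 3 passed 2-fold, so the usual marker Mki67, with 7, 31, 14 and 15 UMIs, shows the difference between libraries less clearly than Birc5 or Ube2c. Of the broad genes, Stmn1 (ENSMUSG00000028832), which destabilizes microtubules, stood at 0.776, 2.13, 0.777 and 1.61 per 10000. Hmgb2 (ENSMUSG00000054717), a chromatin protein, stood at 3.70, 8.41, 5.24 and 10.4, a ratio of 2.27 (1.94 to 2.67), 1.42 (1.20 to 1.68) and 2.80 (2.39 to 3.30). The histone variant gene H2afz (ENSMUSG00000037894) stood at 7.64, 11.4, 9.76 and 14.5. Tubb5 (ENSMUSG00000001525), a beta-tubulin, went the other way at 17, 15.3, 13.8 and 12, with a ratio of 0.707 (0.645 to 0.776) for PDOX.

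**Figure D1:**
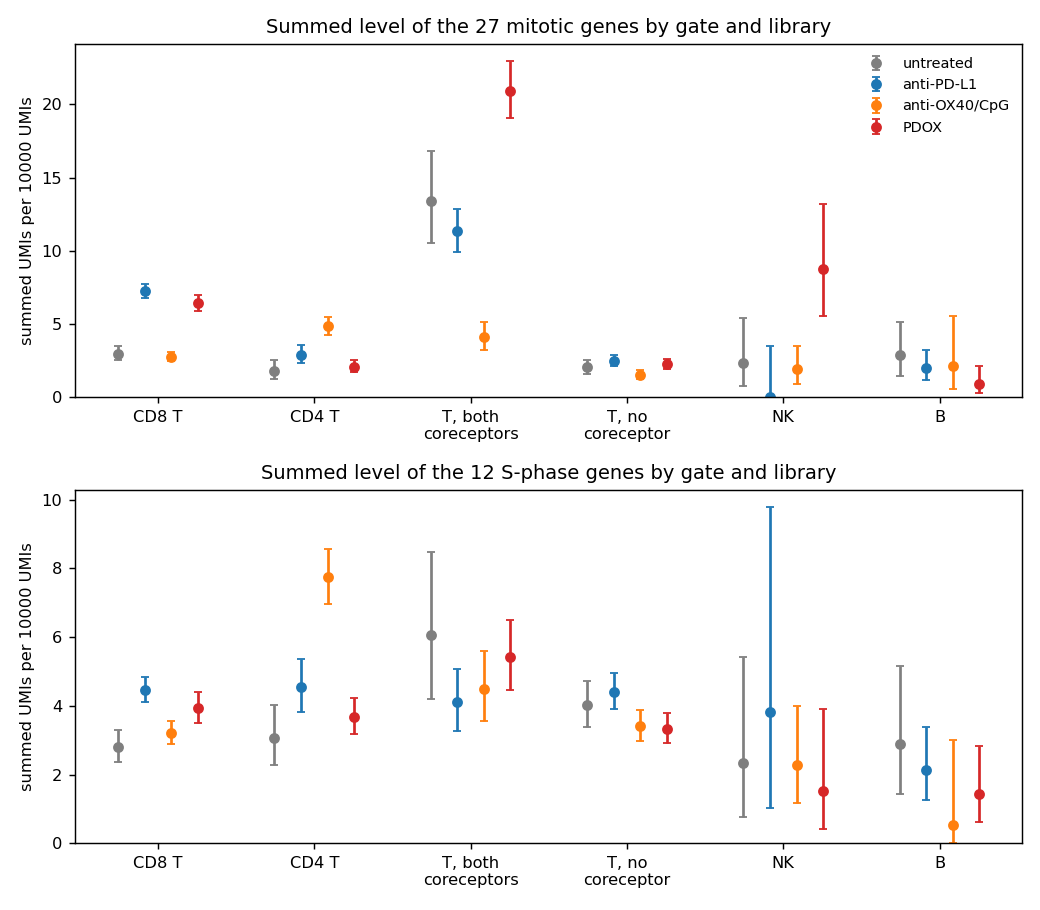
Points give the summed level of the 27 mitotic genes (upper panel) and of the 12 S-phase genes (lower panel) in UMIs per 10000, by gate and library, and bars the exact 95% Poisson interval. In the CD8 T gate the anti-PD-L1 and PDOX libraries are high for mitotic genes, and in the CD4 T gate the anti-OX40/CpG library is high for both classes.

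In CD4 T cells the high library was a different one. The anti-OX40/CpG library had the most S-phase and mitotic transcript of the 4 with the gates used here, and the untreated and PDOX libraries had the least, but the order depends on how the gate is drawn, on depth and on few cells. Most of the members that passed 2-fold in the anti-OX40/CpG library were S-phase genes. Only 3 mitotic genes had the depth to be counted, against 10 S-phase genes, so the 2 classes are not compared. The summed mitotic level was 1.80, 2.90, 4.84 and 2.09 per 10000, from 30, 90, 230 and 112 UMIs, with intervals of 1.21 to 2.57, 2.33 to 3.56, 4.23 to 5.51 and 1.72 to 2.52. The ratio to the untreated library was 1.61 (1.05 to 2.52), 2.69 (1.83 to 4.08) and 1.16 (0.772 to 1.80). The anti-OX40/CpG value lies above the other 3 intervals. Its ratio was 1.59 without the 3 cells richest in mitotic UMIs of each library, 1.49 with thinned cells, 0.991 with the log1p gate and 0.867 without cells that carry at least 3 mitotic genes. For anti-PD-L1 the same last 2 settings gave 0.616 and 0.737, and leaving out the 3 richest cells gave 0.974. With the log1p gate PDOX was highest, at 6.11 per 10000 against 4.70, 2.89 and 4.65 in the other 3, and with thinned cells anti-PD-L1 stood at 2.68 and anti-OX40/CpG at 2.62. The order of the libraries for mitotic genes in CD4 T cells therefore does not hold across settings. Monocyte genes stood at 53.3 per 10000 in the untreated CD4 T gate and at 4.76, 3.11 and 6.51 in the treated libraries. Their part in the CD4 T ratios was not tested.

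The summed S-phase level of the CD4 T gate was 3.06, 4.54, 7.74 and 3.68 per 10000 (51, 141, 368 and 197 UMIs). Its ratio was 1.48 (1.07 to 2.08), 2.53 (1.88 to 3.46) and 1.20 (0.881 to 1.67). The anti-OX40/CpG ratio was 1.53 without cells of over 2900 genes, 1.34 without the 3 richest cells and 1.23 without cells with 3 mitotic genes. In that last setting anti-PD-L1, at 4.10 per 10000, was ahead of anti-OX40/CpG, at 3.99. The broad genes reached 26.5, 30.2, 39.7 and 30.5 per 10000. In the anti-OX40/CpG library 11 of 19 members passed 2-fold upward and 0 downward, where 8.14% of all 4764 genes were higher and 4.74% lower. Some reached the depth through that library alone, such as Birc5 with 22 UMIs against 0, so this count too is a description only. The 11 are 7 of 10 S-phase, 2 of 3 mitotic and 2 of 6 broad genes, but only 2 of 8 members passed at a depth of 50 UMIs, where 3.74% of all genes did. In the anti-PD-L1 library 1 of 10 members (Mcm6) was higher and 0 lower, where 4.8% of 3980 genes were higher and 3.92% lower. In the PDOX library 1 of 10 (again Mcm6) was higher and 0 lower, which is near the 9.88% higher and 5.91% lower of all 4988 genes. At 10 UMIs these became 4 of 17 and 3 of 17 members, where 9.13% and 11.8% of all genes were higher, and at 50 UMIs 0 of 6 and 0 of 6. The median log2 ratio of the members with at least 20 UMIs was 0.14, 1.15 and -0.34 in the 3 treated libraries, and that of all genes 0.04, 0.06 and 0.07. These medians cover 10, 19 and 10 members and are not compared between libraries.

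Several helicase subunits carried much of the S-phase level of the anti-OX40/CpG CD4 T cells. Mcm5 (ENSMUSG00000005410) stood at 0.0600, 0.322, 0.800 and 0.131 per 10000, from 1, 10, 38 and 7 UMIs, a ratio of 13.3 (2.25 to 540). Mcm3 stood at 0.240, 0.322, 0.715 and 0.243, a ratio of 2.98 (1.06 to 11.6), and Mcm4 at 0.420, 0.418, 0.926 and 0.299. Mcm6 was low only in the untreated library, at 0.180 and then 0.547, 0.568 and 0.580, and Mcm2 and Mcm7 did not pass 2-fold. Rrm2 stood at 0.0600, 0.161, 0.736 and 0.0748, a ratio of 12.3 (2.06 to 499) from 35 UMIs against 1. Tyms had 0, 2, 20 and 18 UMIs, at least 2.34-fold higher for anti-OX40/CpG. Pcna differed little, at 1.32, 1.42, 1.73 and 1.33.

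Of the mitotic genes of the CD4 T gate, Top2a stood at 0.120, 0.0322, 0.589 and 0.318 per 10000 and had a ratio of 4.91 (1.24 to 42.5) for anti-OX40/CpG. Birc5 had 0, 11, 22 and 2 UMIs, at least 2.57-fold higher for anti-OX40/CpG. Mki67 had 0, 2, 8 and 3 UMIs, too few for a ratio. Cenpa did not follow them, at 1.02, 0.965, 0.968 and 0.561. Hmgb2 stood at 4.44, 7.43, 11.3 and 7.80, with ratios of 1.67 (1.28 to 2.21), 2.55 (2.001 to 3.30) and 1.76 (1.37 to 2.28), so it was above the untreated library in all 3. H2afz stood at 6.48, 7.33, 10.8 and 11.3. Cks1b, a small partner of cyclin-dependent kinases, had 2, 8, 25 and 11 UMIs. Whether the CD8 T and CD4 T gates differ in their response to a treatment was not tested.

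The next question is how many cells carry these UMIs. A mitotic UMI by itself marks no dividing cell: 21.9% of CD8 T cells and 23.2% of CD4 T cells had at least 1, and so did 22.2% of the cells of the B gate, at a median depth of 1669, 1614 and 1215 UMIs. Most of those T cells had exactly 1 mitotic gene, 374 of the CD8 T gate and 174 of the CD4 T gate, and 53 and 15 had exactly 2. An S-phase UMI was in 30.7%, 40.7%, 35.1% and 41.5% of CD8 T cells and in 25.2% of the B gate. Cells with UMIs of at least 3 of the 27 mitotic genes are therefore counted as mitotic-gene cells.

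In the CD8 T gate 1, 15, 7 and 10 cells were mitotic-gene cells, which is 0.313%, 2.29%, 1.04% and 2.22% of the gate. The exact (Clopper-Pearson) 95% intervals are 0.00794% to 1.73%, 1.29% to 3.74%, 0.420% to 2.13% and 1.07% to 4.04%. In order of share, neighbouring libraries overlap in their intervals. These cells held 54.4%, 81.9%, 55.1% and 75.6% of the gate's mitotic UMIs but 0.971%, 7.89%, 2.83% and 6.23% of all its UMIs. The 33 cells together stood at 74.6 mitotic UMIs per 10000. In all other CD8 T cells the level was 1.37, 1.42, 1.28 and 1.67, which the rule itself keeps low, since those cells have at most 2 mitotic genes. The single richest cell held 81, 163, 132 and 178 mitotic UMIs, and the 1, 4, 3 and 3 richest cells held at least as many as all other cells of the gate. Most mitotic UMIs of each CD8 T library thus lie in a few cells with very many of them. With at least 2 genes as the limit the shares were 2.82%, 4.42%, 3.57% and 5.32%, and PDOX had 4.49% with the log1p gate and 0.990% when cells were thinned.

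In the CD4 T gate 1, 4, 5 and 2 cells were mitotic-gene cells, 0.980%, 2.03%, 1.89% and 0.664% of the gate. They held 10%, 57.8%, 71.7% and 17% of its mitotic UMIs. In the other CD4 T cells the level was 1.72, 1.27, 1.49 and 1.75. The 5 cells of the anti-OX40/CpG library also held 52.7% of the S-phase UMIs of that library's CD4 T gate, while the 33 cells of the CD8 T gate held 19.5% of its S-phase UMIs. These cells were chosen by mitotic genes, so the shares of the 2 classes are not compared. The PDOX share was 2.99% with at least 2 genes, 3.13% with the log1p gate and 0 with thinned cells. The untreated share was 0 with at least 5 genes and 0 with thinned cells.

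**Figure D2:**
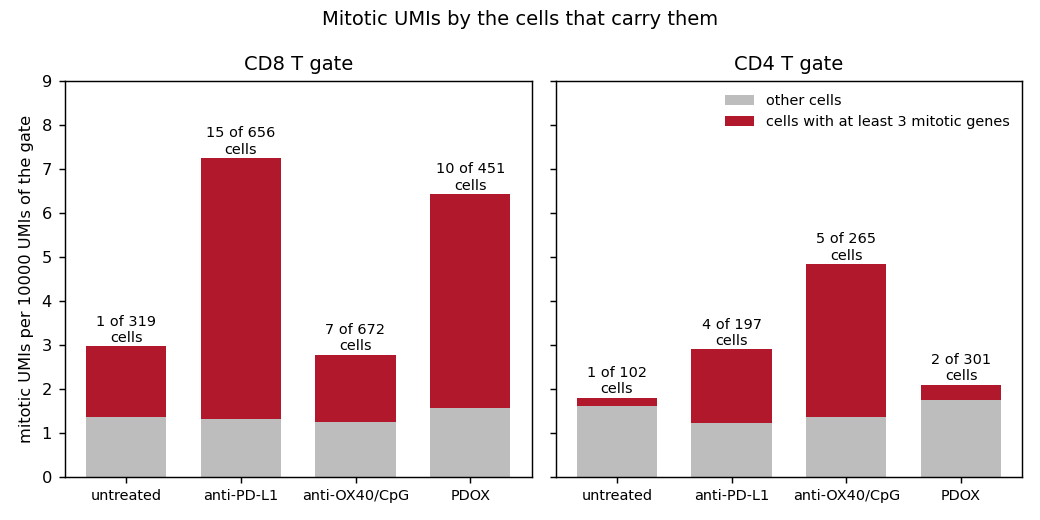
Bars give mitotic UMIs per 10000 UMIs of the gate, split into cells with UMIs of at least 3 mitotic genes (red, their number above the bar) and all other cells (gray), by library in the CD8 T and CD4 T gates. Other cells have at most 2 mitotic genes by this rule, which keeps the gray parts low.

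T cells with UMIs of both coreceptors had mitotic levels of 13.4, 11.3, 4.11 and 20.9 per 10000, above every other gate except in the anti-OX40/CpG library. Of these 236 cells, 19 (8.05%) were mitotic-gene cells, 1, 4, 4 and 10 by library, against 1.60% of all 4810 T cells. The 3 richest cells held 90.7%, 90.9%, 63.5% and 75.3% of this gate's mitotic UMIs. Among mitotic-gene cells 24.7% carried both coreceptors, against 4.58% of the other T cells. Cells with both coreceptors were also deeper, at a median of 5655 UMIs among the mitotic-gene cells and 1925 among the others. T cells with no coreceptor UMI stood at 2.04, 2.48, 1.52 and 2.25. In all T cells together the ratio to the untreated library was 1.93, 0.973 and 1.82 for mitotic genes and 1.29, 1.24 and 1.12 for S-phase genes.

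NK cells and B cells are few in these enriched T cell libraries, and their cell cycle levels are known only roughly. The mitotic level of the NK gate was 2.32, 0, 1.91 and 8.78 per 10000, from 5, 0, 10 and 23 UMIs. The 0 comes from 5 cells and allows a level of up to 3.52, and the 23 UMIs of PDOX lie in 3 cells. The B gate stood at 2.89, 2.02, 2.16 and 0.902, from 11, 17, 4 and 5 UMIs. The S-phase level was 2.32, 3.82, 2.29 and 1.53 in the NK gate and 2.89, 2.14, 0.540 and 1.44 in the B gate. Over all libraries, 2 of 66 NK cells and 1 of 135 B cells were mitotic-gene cells. Mki67 had 0 UMIs in both gates, Birc5 had 6 UMIs in 1 NK cell, and the 17 Cenpa UMIs of the B gate were spread over 16 cells. Pooled over libraries, S-phase genes stood at 3.74 per 10000 in the CD8 T gate, 5.09 in the CD4 T gate, 2.26 in the NK gate and 1.94 in the B gate, and mitotic genes at 5.13, 3.11, 3.44 and 1.89.

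Because each library holds all gates, cell types can be tested within libraries. The summed UMIs of 2 gates were compared by edgeR over libraries with at least 10 cells on each side. A gene is called when its adjusted p is under 0.05. The filter on low counts keeps a gene that is deep enough on 1 side alone. A sparse gene can thus enter through the side where it is high, so counts of called members are a description only. Between CD8 T and CD4 T cells, over 4 libraries, few members could be tested. Of the 19 tested, 1 was called, where 2.54% of all 6107 genes were called higher and 1.7% lower in CD8 T cells. It was Tubb5, higher in CD8 T cells in 4 of 4 libraries by a log2 difference of 0.70 (SE 0.08, edgeR adjusted p 0.000404). Without the untreated library 2 members were called, and without the anti-OX40/CpG library 3. The median log2 difference was 0.02 for the members and -0.00 for all genes, with 0.48 for the 5 mitotic genes and -0.37 for the 8 S-phase genes tested.

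Between NK and T cells 3 of 14 tested members were called over 3 libraries (the anti-PD-L1 library has 5 NK cells), where 3.46% of 5174 genes were higher and 5.66% lower in NK cells. H2afz was higher in NK cells in 3 of 3 libraries by 1.28 on the log2 scale (SE 0.21, edgeR adjusted p 1.13e-07), with pooled levels of 26.1 per 10000 in the NK gate and 6.07 in the B gate. The tubulins were lower in NK cells in 3 of 3 libraries, Tubb5 at -1.50 (SE 0.26, edgeR adjusted p 5.79e-07) and Tuba1b, an alpha-tubulin, at -1.63 (SE 0.37, edgeR adjusted p 0.000354). Tuba1b stood at -2.69 without the anti-OX40/CpG library and was not called by DESeq2. No mitotic or S-phase member was called. In the 5 NK cells of the anti-PD-L1 library, which did not enter the test, Tuba1b stood at 5.73 per 10000 and thus was not low. The median log2 difference was -0.83 for the members, -0.50 with a floor of 3 UMIs for zeros, and -0.22 for all genes.

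Between B and T cells 4 of 12 tested members were called, all lower in B cells, over 3 libraries (the anti-OX40/CpG library has 8 B cells). Of all 5264 genes 7.05% were higher and 7.39% lower. DESeq2 called only Stmn1 of the 12, and the fit with no library term 2, Stmn1 and Tubb5. All 4 are broad genes: Stmn1 at -2.41 (SE 0.50, edgeR adjusted p 0.000588), Hmgb2 at -1.16 (edgeR adjusted p 0.00201), H2afz at -0.79 (edgeR adjusted p 0.00618) and Tubb5 at -0.71 (edgeR adjusted p 0.0115), each lower in 3 of 3 libraries. Without the anti-PD-L1 library only 1 was called, and edgeR's adjusted p was 0.0719 for H2afz, 0.0741 for Stmn1 and 0.254 for Tubb5. Without the mitotic-gene cells the difference was -1.10 for Stmn1, -0.57 for Hmgb2 and -0.57 for Tubb5, none of them called, so much of the T cell level of Stmn1 and Hmgb2 came from mitotic-gene cells. The median was -0.77 for the members and -0.06 for all genes.

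The next comparison asks whether cell cycle transcript lies with effector-type or naive-type T cells. Effector-type cells have at least 2 UMIs of S100a4 and S100a6, genes of activated T cells, and none of the naive genes Ccr7 and Lef1. Naive-type cells have at least 1 UMI of Ccr7 or Lef1 and none of S100a4 and S100a6. Effector-type cells made up 3.76%, 5.49%, 14.0% and 25.9% of the CD8 T gate, or 12, 36, 94 and 117 cells, against 243, 475, 390 and 166 naive-type cells. Their mitotic level was 28.6, 6.88, 3.24 and 6.44 per 10000, and that of naive-type cells 1.36, 1.68, 1.03 and 1.79. The ratio within each library was 21.0 (14.7 to 30.4), 4.10 (3.12 to 5.38), 3.14 (2.20 to 4.48) and 3.60 (2.58 to 5.09). In the untreated library 81 of the 85 effector-type UMIs lie in 1 cell. For S-phase genes the ratio was 3.12, 1.51, 1.60 and 1.40, so effector-type CD8 T cells were ahead of naive-type cells in all 4 libraries for both classes. CD8 T cells that meet neither rule, 64, 145, 188 and 168 in number, stood at 1.34, 20.03, 5.79 and 10.5 mitotic UMIs per 10000. They were above the effector-type cells in the 3 treated libraries and held 1253 of the gate's 1950 mitotic UMIs, so most mitotic transcript lay outside both types. In the anti-OX40/CpG and PDOX libraries 3 of these cells hold 152 of the 193 and 263 of the 321 UMIs, so that order rests on few cells. Effector-type cells were deeper, at medians of 2394.5, 3215.5, 2021 and 1830 UMIs against 1538, 1709, 1668 and 1621.5.

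By edgeR over 4 libraries, 7 of 9 tested members were called in CD8 T cells, 6 higher and 1 lower in effector-type cells. Of all 3849 genes 11.1% were called higher and 9.79% lower. Sparse members can have entered through effector-type cells alone. With no filter 18 of 45 members were called, where 9.30% of all genes were. Top2a stood at 3.36, 1.05, 0.435 and 0.426 per 10000 in effector-type cells and at 0.160, 0.122, 0.127 and 0.149 in naive-type cells, a log2 difference of 2.94 (SE 0.47, edgeR adjusted p 0.000218). Stmn1 stood at 7.73, 2.77, 1.11 and 1.66 against 0.293, 0.377, 0.270 and 0.597, a difference of 2.87 (SE 0.35, edgeR adjusted p 1.10e-05). No effector-type value of either gene overlaps a naive-type value, which the filter favours for genes as sparse in naive-type cells as Top2a and Stmn1. The untreated effector-type values come from 12 cells, of which 1 holds 81 of the 85 mitotic UMIs. Without mitotic-gene cells 4 of 7 tested members were called. Hmgb2 stood at 17.8, 14.4, 7.97 and 14.3 against 2.69, 3.38, 2.74 and 4.85, a difference of 2.07 (SE 0.17, edgeR adjusted p 1.93e-07). H2afz differed by 1.20 (SE 0.16, edgeR adjusted p 2.53e-05). Each of these was higher in effector-type cells in 4 of 4 libraries, and Tubb5 was lower in 4 of 4, at -0.82 (SE 0.15, edgeR adjusted p 0.000622). The median log2 difference was 1.18 for the members and -0.01 for all genes.

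Cenpa and Pcna were called with smaller differences in CD8 T cells, 1.18 (edgeR adjusted p 0.00705) and 0.86 (edgeR adjusted p 0.00851), each higher in effector-type cells in 4 of 4 libraries. Pcna was 0.76 and not called without the anti-OX40/CpG library (edgeR adjusted p 0.0793). Without mitotic-gene cells Cenpa was 0.09 and Pcna 0.64, neither called, and Hmgb2 stayed called at 1.46. So Hmgb2 was high also in effector-type CD8 T cells that carry few mitotic UMIs. Mcm6 at 0.62 and Tuba1b at -0.39 were not called. Of 34 other mitotic genes 6 were tested, with Lmnb1, a nuclear lamina protein, higher at 2.76 (SE 0.47, edgeR adjusted p 0.000409) and Smc4, a condensin subunit, lower at -1.38 (SE 0.20, edgeR adjusted p 0.000106), each in 4 of 4 libraries. Of 28 other G1 and S-phase genes 6 were tested and 4 were higher, led by 2810417H13Rik, a PCNA-binding factor, at 3.99 (SE 0.54, edgeR adjusted p 4.50e-05) and 4.86 without the anti-PD-L1 library. Rpa2, a subunit of the single-strand DNA-binding complex, differed by 2.02 (SE 0.24, edgeR adjusted p 9.68e-06). The 2 others depend on the libraries that enter: Slbp, which binds the stem-loop of histone mRNA, at 0.99 and 0.74 without anti-OX40/CpG (edgeR adjusted p 0.169), and Dut, a dUTPase, at 0.66, no longer called when any 1 library is left out.

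Effector-type CD4 T cells were 5.88%, 5.58%, 18.1% and 34.9% of the gate, or 6, 11, 48 and 105 cells, against 83, 154, 140 and 97 naive-type cells. Their mitotic level was 2.45, 17.7, 12.8 and 3.31 per 10000, and that of naive-type cells 1.31, 1.20, 1.09 and 1.21. The ratio within each library was 1.86 (0.534 to 5.32), 14.7, 11.7 and 2.73. In the anti-PD-L1 and anti-OX40/CpG libraries 3 cells hold 33 of the 38 and 124 of the 140 effector-type mitotic UMIs, so both high values rest on 3 cells each. S-phase genes differ from this: effector-type cells were ahead only in the anti-OX40/CpG library, at 13.7 against 3.92 with 120 of the 150 UMIs in 3 cells, and stood at 1.47 against 3.45, 2.79 against 4.12 and 3.86 against 4.14 in the others. CD4 T cells that meet neither rule stood at 3.67, 4.26, 4.50 and 1.48 for mitotic genes and at 2.45, 6.92, 8.99 and 3.17 for S-phase genes. In those others the S-phase ratio of effector-type to naive-type cells had intervals of 0.0844 to 1.33, 0.243 to 1.53 and 0.655 to 1.33. They rest on 3, 6 and 77 effector-type UMIs. All of them span 1, so outside the anti-OX40/CpG library no order of the states is shown for S-phase genes.

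By edgeR over the 3 libraries with enough cells, 6 of 8 tested members were called in CD4 T cells, 4 higher and 2 lower. Of all 3011 genes 7.21% were higher and 7.67% lower. Here too a sparse gene can enter through 1 side alone. With no filter 11 of 43 members were called, where 3.27% of all genes were. DESeq2 and the fit with no library term each called 3 of the 8, Hmgb2, H2afz and Stmn1. Hmgb2 stood at 2.94, 30.3, 26.3 and 8.28 per 10000 in effector-type cells against 4.11, 3.18, 3.78 and 4.07, a log2 difference of 2.36 (SE 0.22, edgeR adjusted p 4.77e-13). H2afz stood at 14.2, 16.8, 20.5 and 15.4 against 4.68, 5.45, 5.61 and 6.36, a difference of 1.58 (SE 0.17, edgeR adjusted p 1.76e-10). Both were higher in effector-type cells in 3 of 3 libraries, and for H2afz the 2 states do not overlap in any library. Stmn1 differed by 1.84 (SE 0.31, edgeR adjusted p 8.73e-06) in 3 of 3 libraries, but by -0.57 without mitotic-gene cells. Without those cells Hmgb2 was still 1.21, and Cenpa went from 1.30 to -0.37. Cenpa was higher in only 2 of 3 libraries, and its call needs both of them: it was 0.63 without anti-PD-L1 (edgeR adjusted p 0.336), 1.29 without anti-OX40/CpG (edgeR adjusted p 0.194) and 1.93 without PDOX. The tubulins were lower, Tubb5 by a log2 value of -0.61 in 3 of 3 libraries and Tuba1b by -0.75 in 2 of 3. Without PDOX they stood at -0.37 (edgeR adjusted p 0.432) and -0.11 (edgeR adjusted p 0.913), and Tuba1b at -1.58 without anti-OX40/CpG. The median log2 difference was 0.93 for the members and -0.02 for all genes. Of the other mitotic genes 4 were tested, 2 of them higher and 1 lower. Cks2, a partner of cyclin-dependent kinases, differed by 2.96 in 3 of 3 libraries (SE 0.56, edgeR adjusted p 5.28e-05), by 3.64 without PDOX and by 2.68, no longer called, without anti-OX40/CpG. Pttg1, securin, differed by 1.02 in 3 of 3 (edgeR adjusted p 0.00782) and was not called without anti-OX40/CpG or without PDOX. Smc4 was lower at -0.85, as in CD8 T cells, and not called without PDOX (-0.65, edgeR adjusted p 0.260). DESeq2 called neither Pttg1 nor Smc4.

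**Figure D3:**
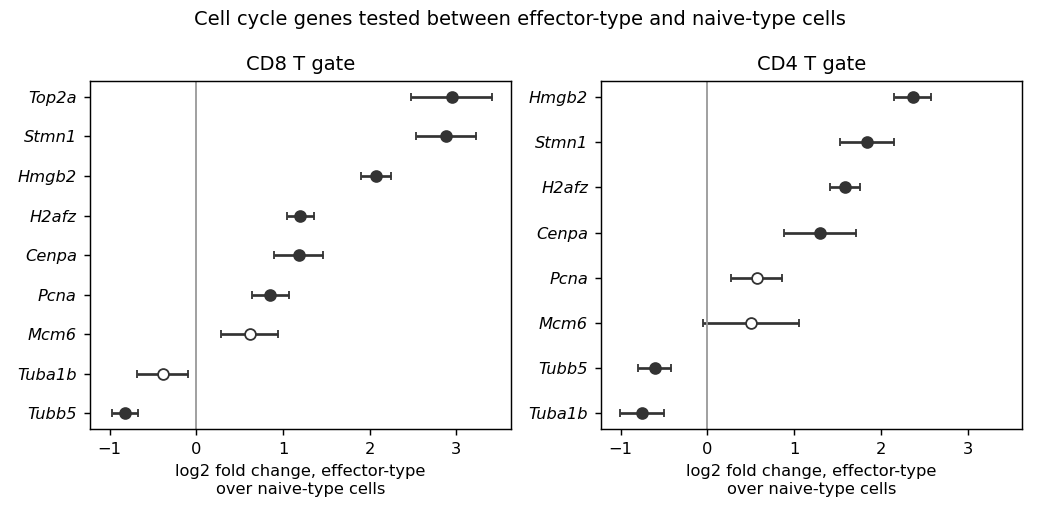
Points give edgeR's log2 difference between effector-type and naive-type cells for each tested member in the CD8 T gate (9 genes, 4 libraries) and the CD4 T gate (8 genes, 3 libraries), bars 1 SE, and filled points genes called at an adjusted p under 0.05. Hmgb2, Stmn1 and H2afz lie to the right and Tubb5 to the left in both gates.

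The last comparison sets the 77 mitotic-gene cells of all T cells, 6, 28, 18 and 25 by library, against the other 4733 T cells, to see what else they express. They were chosen by the mitotic members, so no member was tested. Other cell cycle genes are made in dividing cells too, so their rise is largely given by this choice. Most of these genes were higher in the mitotic-gene cells. Naive genes were lower and several effector and glycolysis genes were higher in these cells. They held a median of 4841 UMIs against 1557. High doublet scores (the top 5% of each library by Scrublet) were in 1.30% of them and in 5.39% of the others. An S-phase UMI was in 80.5% of them against 37.8%. With every cell thinned to 750 UMIs, which removes the difference in depth, it was in 56.6% against 20.02%, and S-phase genes gave 1.25 against 0.233 UMIs per cell. S-phase UMIs were thus more frequent in the mitotic-gene cells also at equal depth, though not present in all of them.

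By edgeR over 4 libraries, 330 genes (4.9% of 6735) were higher and 298 (4.42%) lower in mitotic-gene cells. Leaving out 1 library gave 1250 genes in all without untreated, 249 without anti-PD-L1, 208 without anti-OX40/CpG and 416 without PDOX, against 628 with all 4, and thinned cells gave 124. Of the other mitotic genes 23 were tested, and 21 were higher and 0 lower. Their median log2 difference was 3.58, against -0.10 for all genes. Cells chosen by mitotic genes are bound to be rich in such genes, so these values describe the choice. Sparse genes such as Ckap2l can also have entered the test through the mitotic-gene cells alone. Ckap2l, a spindle protein, differed by 6.98 (SE 0.75, edgeR adjusted p 2.88e-05) in 4 of 4 libraries, from 20 UMIs against 2, and by 7.61 without untreated. Nuf2, a kinetochore subunit, differed by 6.32 (edgeR adjusted p 0.000105) in 4 of 4 libraries. Melk, a kinase of dividing cells, differed by 6.64 (edgeR adjusted p 5.76e-05) in 4 of 4. Cdca5, sororin, which protects sister chromatid cohesion, differed by 6.36 (edgeR adjusted p 6.24e-05) in 4 of 4, by 5.67 without anti-PD-L1 and by 9.16 without anti-OX40/CpG.

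Of the other G1 and S-phase genes 20 were tested in the mitotic-gene cells, and 18 were higher and 0 lower, with a median of 2.28. The same limits apply to all genes of this paragraph, above all to Mxd3, Ska1 and Esco2, which were sparse in the other T cells. The PCNA-binding factor 2810417H13Rik differed by 7.53 (SE 0.30, edgeR adjusted p 1.47e-09) in 4 of 4 libraries, from 343 UMIs in the 77 cells against 32 in all others, a level ratio of 197. Asf1b, a histone chaperone, differed by 4.79 (edgeR adjusted p 9.74e-07), and Gins2, a helicase cofactor, by 3.70 (edgeR adjusted p 0.000315), each in 4 of 4. Mxd3, a MAX-binding repressor, had 31 UMIs in these cells against 0 in the others, at least 190-fold higher. Ska1, a kinetochore protein, had 33 UMIs against 2, a level ratio of 303 (77.4 to 2604), and its log2 difference of 7.63 was 8.27 without anti-OX40/CpG. Esco2, a cohesin acetyltransferase, had 19 against 1, a ratio of 349 (55.4 to 14486), with a log2 difference of 7.61 and 8.67 without untreated. The linker histone gene Hist1h1b had 48 against 6, a ratio of 147. UMIs of Mxd3, Ska1 and Esco2 were therefore nearly absent from the other T cells, while Asf1b with 62 and Gins2 with 39 UMIs were not.

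Of the G1 cyclins and kinases 5 were tested, and 2 were higher and 1 lower, with a median of -0.02. Cdk6 and Cdk4, the D-cyclin kinases, differed by 1.01 (edgeR adjusted p 0.0263) and 0.76 (edgeR adjusted p 0.0431) in 4 of 4 libraries, and neither was called without anti-PD-L1 or without anti-OX40/CpG, nor Cdk4 by DESeq2. Ccnd2, cyclin D2, was lower at -1.12 (edgeR adjusted p 0.00538) in 4 of 4 and not called without anti-OX40/CpG. Of 9 tested inhibitors of the cycle 1 was higher and 3 were lower, with a median of -0.53. Cdkn2c, an inhibitor of Cdk4 and Cdk6, was the 1 higher at 3.13 (SE 0.37, edgeR adjusted p 6.64e-05). The antiproliferative genes Btg1 at -1.90 (edgeR adjusted p 8.25e-05) and Btg2 at -1.28 (edgeR adjusted p 0.00324) were lower, with Cdkn1b, the inhibitor p27, at -1.48 (edgeR adjusted p 0.00183), all in 4 of 4. The inhibitors thus moved both ways, and 5 of the 9 were not called.

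Of 24 effector genes tested 8 were higher in the mitotic-gene cells and 0 lower, with a median of 1.05. Gzmb, a cytotoxic protease, differed by 2.65 (SE 0.31, edgeR adjusted p 7.48e-05), Lgals1, a galectin, by 2.12 (edgeR adjusted p 5.76e-05), S100a6 by 1.68 (edgeR adjusted p 0.00109) and Lgals3 by 1.67 (edgeR adjusted p 0.00142), each in 4 of 4 libraries. Of 14 naive and memory genes 12 were lower and 0 higher, with a median of -1.73. The transcription factor Lef1 differed by -2.38 (SE 0.23, edgeR adjusted p 1.24e-05), the chromatin organizer Satb1 by -2.33 (edgeR adjusted p 3.14e-05) and Igfbp4, an IGF-binding protein, by -2.37 (edgeR adjusted p 0.00104) in 4 of 4. Dapl1, a gene of naive CD8 T cells, differed by -2.96 (edgeR adjusted p 0.00142) in 4 of 4, by -2.27 without untreated and by -4.96 without anti-PD-L1. Of the mitotic-gene cells 45.5% met the effector-type rule, against 14.2% of other T cells, and 10.4% the naive-type rule, against 59.0%. A further 44.2% met neither, against 26.8%.

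Glycolysis genes were higher in part, 3 of 10 tested with 0 lower and a median of 0.61. Gapdh differed by 1.35 (edgeR adjusted p 0.000510), Pgam1 by 1.32 (edgeR adjusted p 0.00339) and Tpi1 by 1.21 (edgeR adjusted p 0.0134), each in 4 of 4 libraries. Pgam1 was not called without anti-OX40/CpG, and Tpi1 was not called without it or without anti-PD-L1. Of 7 Treg genes 2 were higher (Ctla4 and Ikzf2, named after their values were seen) with a median of 0.64, and of 5 inhibitory receptor genes 1 was (Ctla4), with a median of 1.10. Foxp3 UMIs were in 9.09% of mitotic-gene cells, 7 in number, against 1.77%. By library the shares were 0, 14.3%, 5.56% and 8% against 1.18%, 0.857%, 1.71% and 3.06%. Mitotic-gene cells were deeper, at a median of 4841 UMIs against 1557, and the part of depth in the Foxp3 share was not tested. Some genes had 0 UMIs in the mitotic-gene cells: Pdlim4, a cytoskeletal adaptor, had 364 in the others and was at least 6.61-fold lower, and Zfp780b, RP23-6I17.1 and Rab6b were at least 4.31-, 4.09- and 4.01-fold lower. The last 3 were not called without anti-PD-L1 or without anti-OX40/CpG, and the last 2 not without PDOX.

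Of 9 lists of other cell types, pooled over libraries, 5 stood higher in the mitotic-gene cells and 4 lower, 2 of the 5 by little. B cell genes stood at 0.303 per 10000 against 0.288, and by library they were higher only in PDOX, at 0.564 against 0.211. Monocyte genes stood at 27.1 against 26.2, with Lyz2 the most abundant at 12.9 against 12.5. Ly6c2, which is also on the effector list, stood at 7.15 against 7.48. By library the monocyte level was 124, 28.2, 9.64 and 10.2 against 45.7, 33.6, 13.7 and 22.5, so it was high in the 6 untreated cells. Neutrophil genes stood at 0.466 against 2.21, but at 4.59 against 0.675 in the untreated library, where 2 of the 6 cells carry them, and the other T cells of PDOX stood at 6.67. Platelet genes stood at 0.210 against 0.467, erythroid genes at 0.140 against 0.400 and basophil genes at 0 against 0.245. NK receptor genes stood at 1.42 against 0.570, most of it Klre1 at 1.05 against 0.349. Of that list Klrb1c alone was lower, at 0.0699 against 0.124. Plasmablast genes stood at 1.28 against 0.650, most of it Xbp1 at 0.768 against 0.494. In the mitotic-gene cells Jchain had 2 UMIs and Mzb1, the only lower gene of that list, 0. Whether T cells themselves made these UMIs was not tested. Progenitor genes stood at 0.419 against 0.0317, with 16 UMIs of Prtn3 in 2 of the 6 untreated cells and Cd34, Kit and Mpo at 0. The part of these 2 cells in the results was not tested.

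The promoters of the members show which cell cycle motifs precede their starts. RefSeq promoter sequences (build GRCm38.p6) were found for 39 of the 45 members, with H2afz listed under its newer name H2az1, and the 250 bases before each start were searched on both strands. The motif CCAAT, bound by NF-Y, was in 20 of 23 mitotic promoters (87.0%), 9 of 11 S-phase promoters (81.8%) and 4 of 5 broad promoters (80%), against 34.5% of all 27025 promoters. The motif TTTNNCGC, a part of E2F sites, was in 4 S-phase promoters (36.4%) and 1 mitotic promoter (4.35%), against 4.39% of all. The motif TTTGAA, the core of the cell cycle homology region, was in 7 mitotic (30.4%), 1 S-phase (9.09%) and 2 broad promoters (40%), against 16.3% of all. Matches may overlap, and a match is a description of letters, not of binding. The sequences show 4 members as examples of the 3 classes and of the motifs: Mcm6 for S phase, Cdk1 and Top2a for mitosis and Hmgb2 for the broad genes, 5′ to 3′ on the gene's strand, with every match of the 3 motifs in capitals. Top2a lies at chr11:99024190-99024439 (minus strand), Cdk1 at chr10:69352913-69353162 (minus), Mcm6 at chr1:128359706-128359955 (minus) and Hmgb2 at chr8:57511593-57511842 (plus).
Mcm6: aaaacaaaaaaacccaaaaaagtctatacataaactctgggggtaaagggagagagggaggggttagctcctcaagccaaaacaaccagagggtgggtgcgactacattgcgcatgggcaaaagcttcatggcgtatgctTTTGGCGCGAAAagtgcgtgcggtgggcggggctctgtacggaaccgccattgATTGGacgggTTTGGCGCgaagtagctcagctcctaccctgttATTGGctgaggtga
Cdk1: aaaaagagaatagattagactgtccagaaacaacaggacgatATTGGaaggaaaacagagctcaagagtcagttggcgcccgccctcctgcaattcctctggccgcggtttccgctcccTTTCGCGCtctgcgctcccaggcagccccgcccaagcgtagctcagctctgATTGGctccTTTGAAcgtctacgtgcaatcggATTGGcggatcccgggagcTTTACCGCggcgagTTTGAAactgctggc
Top2a: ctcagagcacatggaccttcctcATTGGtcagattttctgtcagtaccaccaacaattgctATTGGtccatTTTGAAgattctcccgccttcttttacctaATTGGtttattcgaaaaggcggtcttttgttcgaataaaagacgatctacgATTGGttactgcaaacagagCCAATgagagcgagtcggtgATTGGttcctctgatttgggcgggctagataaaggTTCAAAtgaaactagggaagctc
Hmgb2: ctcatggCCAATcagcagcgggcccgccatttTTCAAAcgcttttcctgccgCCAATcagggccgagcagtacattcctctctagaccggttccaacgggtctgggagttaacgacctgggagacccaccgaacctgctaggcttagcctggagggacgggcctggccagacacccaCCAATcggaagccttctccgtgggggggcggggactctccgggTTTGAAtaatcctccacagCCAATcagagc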

How the data were processed

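The authors sequenced 10x Chromium 3′ libraries and deposited raw UMI counts for each gene and cell barcode of 4 libraries (build mm10 per the submitters' processing notes). Barcodes with at least 200 genes were kept (5299 cells), with no upper limit. Totals do not include 13 mitochondrial genes, 102 ribosomal protein genes and 10 genes of hemoglobin. Gates used raw UMIs, with under 2 UMIs of B cell genes allowed in T and NK gates. Scrublet (in Scanpy 1.11.5) called 28 cells (0.528%) as doublets, and none was removed. Pairs of libraries share 14 barcodes in all, which were kept. Levels have exact Poisson intervals, shares exact Clopper-Pearson intervals and ratios conditional binomial intervals, with 3 UMIs in place of a count of 0. Summed UMIs of gates were compared with edgeR 4.0.16 in R 4.3.3 (quasi-likelihood, TMM, filterByExpr, a library term, Benjamini-Hochberg over all genes tested), for libraries with at least 10 cells per side, or 5 for the cells with 3 mitotic genes. The SE of a log2 difference was derived from its F statistic. DESeq2 1.42.0, Python 3.11.15, NumPy 2.4.6 and SciPy 1.17.1 were also used. Interval code was tested on simulated data.

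The members and lists were chosen with earlier results of these data known. Members with at least 20 UMIs in the CD8 T and CD4 T gates together may be named, which leaves out Bub1 and Bub1b. From the other lists, up to 4 called genes with the largest difference are named if they go the same way in every library. From the comparison of the mitotic-gene cells, the 5 largest increases and decreases among all genes are named by the same rule. A few genes that the rules name are not reported here. The alternatives tried were other totals, limits on genes per cell, gates by a log1p value above 1 for Cd8a or Cd4 without other conditions (the study's positivity value for other genes), removal of high Scrublet scores or of the 3 richest cells, thinning to 750 UMIs (634 cells hold fewer), other numbers of genes or UMIs, DESeq2, its size factors in edgeR, no filter, no library term and leaving out each library. Removal of the cells with 3 mitotic genes, the CD8 T and CD4 T gates alone and all T cells together were added after seeing the data. A test of Foxp3-positive against other CD4 T cells was not run, since only the PDOX library has 10 such cells. Promoters with no RefSeq match were not used.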

Additional observations from a re-analysis of the deposited data

Results flagged for a closer look

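T cells with UMIs of both coreceptors, Cd4 and a CD8 chain, belong to neither the CD8 T nor the CD4 T gate and enter ratios between treatments only with all T cells together and with gates by a log1p value above 1 for Cd8a or Cd4. In the PDOX library their mitotic level was 20.9 per 10000 (19.1 to 23.0), above the level of the same kind of cell in the untreated library, 13.4 (10.5 to 16.8). The value was picked out because it is a signal in cells outside the main gates that lies above the untreated library by counting error. Counting error leaves out the spread between cells. Both levels rest on 1 library, and the 3 richest cells hold 75.3% of these UMIs in PDOX and 90.7% in the untreated library. Over all libraries, mitotic-gene cells with both coreceptors held a median of 5655 UMIs and other T cells with both 1925, and the part of depth in the level was not tested.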

How the results depend on the processing

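No paired analysis was possible because each treatment has 1 library and the replicate number 1 only names it. This holds for treatments, while gates and states were compared within libraries. Low depth limits the single genes: with few mitotic UMIs per cell, few members could be tested. Of the values for levels, shares and counts, 150 stayed within their interval or within 1.5 times the count, 60 moved and 5 reversed. Of the single genes, 577 kept direction and call, 87 lost the call and 2 reversed. Keeping all genes in the total and leaving out cells with high Scrublet scores moved no ratio past its interval. The cause of the moves that follow was not tested, except that stricter limits leave fewer genes or cells.

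The mitotic ratio of the CD8 T gate moved to 1.38 for anti-PD-L1 without cells of over 2900 genes. With a log1p value above 1 for Cd8a or Cd4 (the log1p gate) it was 3.31 for anti-PD-L1, 0.596 for anti-OX40/CpG and 3.28 for PDOX. Without the 3 richest cells it was 3.16 for anti-PD-L1. With thinned cells it was 1.53 for anti-PD-L1 and 1.49 for PDOX, and without cells with 3 mitotic genes 1.04 and 1.23. The S-phase ratio of that gate was 1.22 for anti-PD-L1 and 1.14 for PDOX with thinned cells.

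The mitotic ratio of the CD4 T gate reversed for anti-PD-L1 to 0.616 with the log1p gate, 0.974 without the 3 richest cells and 0.737 without cells with 3 mitotic genes. For anti-OX40/CpG it reversed to 0.991 with the log1p gate and 0.867 without cells with 3 mitotic genes, and moved to 1.59 without the 3 richest cells and 1.49 with thinned cells. The S-phase ratio of that gate was 1.06 for anti-PD-L1 with the log1p gate. For anti-OX40/CpG it was 1.53 without cells of over 2900 genes, 1.75 with the log1p gate, 1.34 without the 3 richest cells and 1.23 without cells with 3 mitotic genes.

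The share of mitotic-gene cells in the CD8 T gate was 2.82%, 4.42%, 3.57% and 5.32% with at least 2 genes. For PDOX it was 0.990% with thinned cells and 4.49% with the log1p gate. In the CD4 T gate the untreated share was 0 with at least 5 genes and 0 with thinned cells, and the PDOX share 2.99% with at least 2 genes, 0 with thinned cells and 3.13% with the log1p gate.

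Members 2-fold higher at 50 UMIs numbered 4 of 17, 0 of 11 and 6 of 12 in the CD8 T gate of the 3 treated libraries and 0 of 6, 2 of 8 and 0 of 6 in the CD4 T gate. At 10 UMIs they numbered 18 of 38 for PDOX in the CD8 T gate, and 4 of 17 for anti-PD-L1 and 3 of 17 for PDOX in the CD4 T gate.

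Members called between CD8 T and CD4 T cells numbered 7 of 45 with no filter (3.31% of all genes), 2 of 8 with thinned cells (6.76%), 2 of 12 without cells with 3 mitotic genes (5.73%) and 1 to 3 with 1 library left out. Between B and T cells they numbered 1 of 12 with DESeq2 (7.67%), 7 of 45 with no filter (6.72%), 2 of 12 with no library term (11.6%), 1 of 6 with thinned cells (14.5%), 1 of 9 without cells with 3 mitotic genes (12.9%) and 1 to 5 with 1 library left out. Between effector-type and naive-type CD8 T cells they numbered 18 of 45 with no filter (9.30%), 4 of 4 with thinned cells (18.6%) and 4 of 7 without cells with 3 mitotic genes (18.4%). Between effector-type and naive-type CD4 T cells they numbered 3 of 8 with DESeq2 (5.38%), 11 of 43 with no filter (3.27%) and 3 of 8 with no library term (15.3%). Genes called in the mitotic-gene cells numbered 124 with thinned cells and 208 to 1250 with 1 library left out. Without cells with 3 mitotic genes, the CD4 T difference between effector-type and naive-type cells reversed to -0.37 for Cenpa and -0.57 for Stmn1.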

Other observations

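Foxp3, the transcription factor of regulatory T cells, was found in 3, 3, 9 and 15 cells of the CD4 T gate. Their mitotic level was 3.46, 35.3, 13 and 4.28 per 10000, against 1.74, 2.05, 4.31 and 1.96 in CD4 T cells without Foxp3. Their S-phase level was 3.46, 3.78, 25.6 and 3.96, against 3.05, 4.56, 6.57 and 3.67, and 72 of the 75 S-phase UMIs of the anti-OX40/CpG library lie in 3 cells. The anti-PD-L1 value comes from 28 UMIs in 2 cells and the anti-OX40/CpG value from 38 UMIs in 3 cells. The Foxp3-positive cells of the anti-PD-L1 and anti-OX40/CpG libraries therefore stood above the Foxp3-negative cells for mitotic genes, and those of the anti-OX40/CpG library also for S-phase genes.

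Plasmablast genes of the B gate stood at 8.92, 12.4, 313 and 8.12 per 10000, the high value in the 8 cells of the anti-OX40/CpG library. Monocyte genes stood at 53.3, 4.76, 3.11 and 6.51 in the CD4 T gate and at 24.2, 32.1, 14.8 and 17.2 in the CD8 T gate. The monocyte list includes Ly6c2, a gene of the effector list that was called higher in CD8 T than in CD4 T cells. Cells in no gate numbered 54, 72, 37 and 125.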
